A study of Arabidopsis thaliana with 4 samples.

Results

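A class of 208 loci stood higher in the middle of seed growth than at either end in siliques, the seed-bearing fruits, of Arabidopsis thaliana Col-0. These were 208 of the 19903 loci listed above 0 in every library, which in turn were 66.4% of the 29971 loci measured. Siliques were taken from plants in long days at 4 ages counted from anthesis, the opening of the flower: 0 to 5 days (stage 1), 6 to 10 days (stage 2), 11 to 15 days (stage 3) and 16 to 20 days (stage 4). These limits are those of the stage labels. The growth protocol starts stage 1 at day 1, calls days 11 to 15 a second stage 2 and gives days 6 to 10 for stage 4, and was not followed. The labels name no mutation or treatment in any group, and each stage was 1 library, so no value has a replicate error, no test was run and every difference describes these libraries. The labels say nothing of how many plants or fruits went into a library.

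A locus was placed in the class when its lowest log2(FPKM + 1) in stages 2 and 3 was at least 1 above its highest in stages 1 and 4. FPKM is a fragment number scaled to transcript length and library size, and the difference of these 2 values is called the margin below. The class was chosen by these same values, so the levels and margins are a description and support nothing beyond themselves. It held 1.05% of the loci compared. The mirrored class, low in both middle libraries, held 103 loci or 0.518%. The median margin over all loci compared was -0.59, a negative value because a locus with no order among the stages usually has its lowest middle value under its highest outer one. The loci nearest the limit on the inside were AT3G24690, AT1G64800 and AT4G14730, each at a margin of 1.01. Just outside were AT4G04410 at 0.999, AT1G01130 (a locus shared with another gene) at 0.995 and AT3G13900 at 0.995.

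A developing Arabidopsis seed holds 3 genetically distinct parts: the embryo, the endosperm that nourishes it, and the maternal seed coat. In the days sampled here the endosperm first becomes cellular and is then largely consumed by the growing embryo, outer seed coat cells fill with pectin mucilage, and the embryo passes from pattern formation to storage of oil and protein. Embryo development is steered by a few maturation regulators, among them LEC1, a subunit of a CCAAT-binding factor, and the B3-domain proteins LEC2, FUS3 and ABI3.

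The libraries were set against marker lists for the tissues of a silique. The summed FPKM of 6 endosperm markers with a value was 44.4, 127, 94.0 and 26.7 in stages 1 to 4, and that of 8 seed coat markers was 170, 749, 672 and 407. The embryo sum over 5 markers was 11.98, 120, 160 and 137. Pollen markers summed to 392 in stage 1 against 12.7, 4.99 and 5.39 later, and the silique wall and valve margin sum was highest in stage 4, at 404 against 168 to 253. The floral and nectary sum was 82.3, 93.2, 93.7 and 54.1, and its nectary and carpel marker CRC was listed at 0 in stage 4. The loci of the endosperm marker AGL62 (5.21 to 7.89) and the pollen marker VGD1 (123 in stage 1) are shared with other genes. Their part of the sums is therefore joint. Endosperm, seed coat and floral sums were thus higher in both middle libraries than in either outer one, but single markers and class members carry several of these sums. Without its members RGE1 and MYB118 the endosperm sum was 44.1, 76.1, 44.4 and 15.5, so that stage 3 was level with stage 1. Without MUM4 and AT3G50990 the seed coat sum was 135, 559, 543 and 364. The floral sum without AP3 was 49.0, 3.82, 1.87 and 4.69, highest in stage 1. Without FUS3 the embryo sum was 11.8, 97.4, 48.6 and 23.6, no longer high in stage 4. Without its members LEC1 and WOX8, the embryo sum was instead 11.2, 33.0, 125 and 128, highest in stage 4. The silique wall sum without ADPG1 was 167, 229, 167 and 158, highest in stage 2 and lowest in stage 4. In bulk fruit RNA, fewer cells of a type and less RNA per cell cannot be told apart, and the part that tissue proportion plays in any member's value was not tested. The low values step in whole fragments at about 65.7, 94.3, 68.3 and 56.4 M (mega) fragments in stages 1 to 4 if the plain FPKM formula was used. On that estimate 48 of 194 members with a usable length rested on under 10 fragments in stage 1 and 10 in stage 4, against 1 in each middle library.

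The median FPKM of the members was 0.957, 27.1, 20.6 and 4.43 in the libraries of stages 1 to 4. Members ran from barely detected to abundant: both middle values were at least 10 in 129 members and at least 100 in 22. In stage 1, 107 members were under an FPKM of 1, against 42 in stage 4 and 40 in both. The rule itself favours low outer values, and the same counts over all loci compared were not made. Summed over the class, FPKM came to 1644, 15777, 11271 and 2781, which was 0.172%, 2.29%, 1.23% and 0.317% of the FPKM over loci of at least 300 bases. The class was therefore a small share of the transcript pool even where it was highest. The margin was at least 2 in 44 members and at least 3 in 4, with a median of 1.46.

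**Figure D1:**
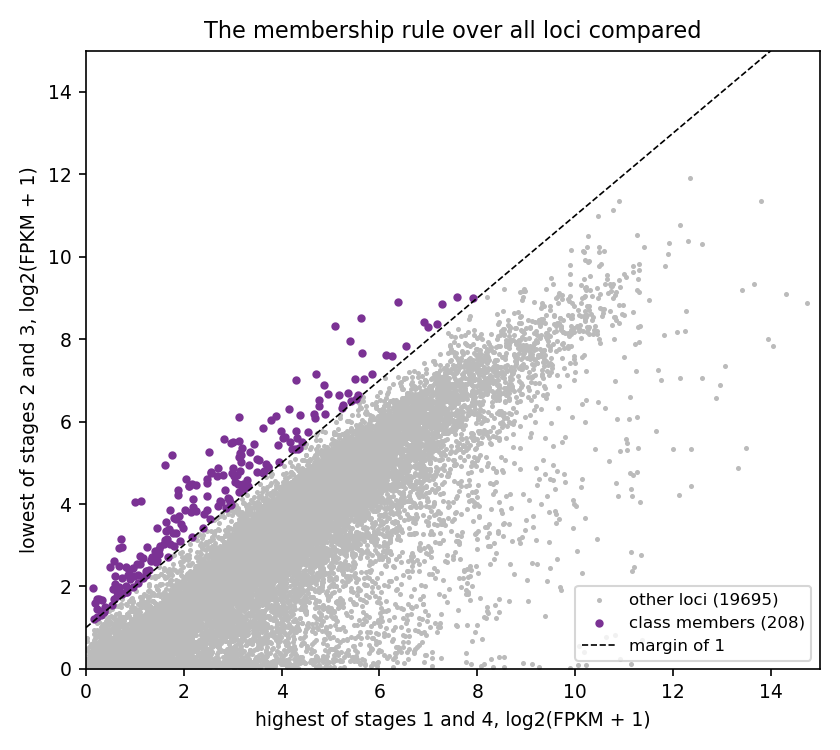
Each point is 1 of the 19903 loci compared, with the higher of its stage 1 and 4 values on the x axis and the lower of its stage 2 and 3 values on the y axis, both as log2(FPKM + 1). The 208 class members, in purple, lie on or above the dashed line that marks a margin of 1, and the largest margin is 3.42.

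The outer stages were not alike, and neither were the middle ones. Stage 4 lay above stage 1 in 165 of 208 members (79.3%), against 50.4% of all loci compared. It was higher by at least 1 in 80 members (background 18.5%), and stage 1 was higher by at least 1 in 4 (background 19.7%): AT3G01345, KCS19, SYP111 and SK7. Stage 2 lay above stage 3 in 147 members (70.7%), against 51.4% of all loci. The gap was at least 1 in 50 members (background 9.96%) and at least 1 in the other direction in 7 (background 11.3%). Most members were thus lowest in stage 1 and highest in stage 2. The rule constrains both pairs of values, so these shares describe the class and were not tested.

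**Figure D2:**
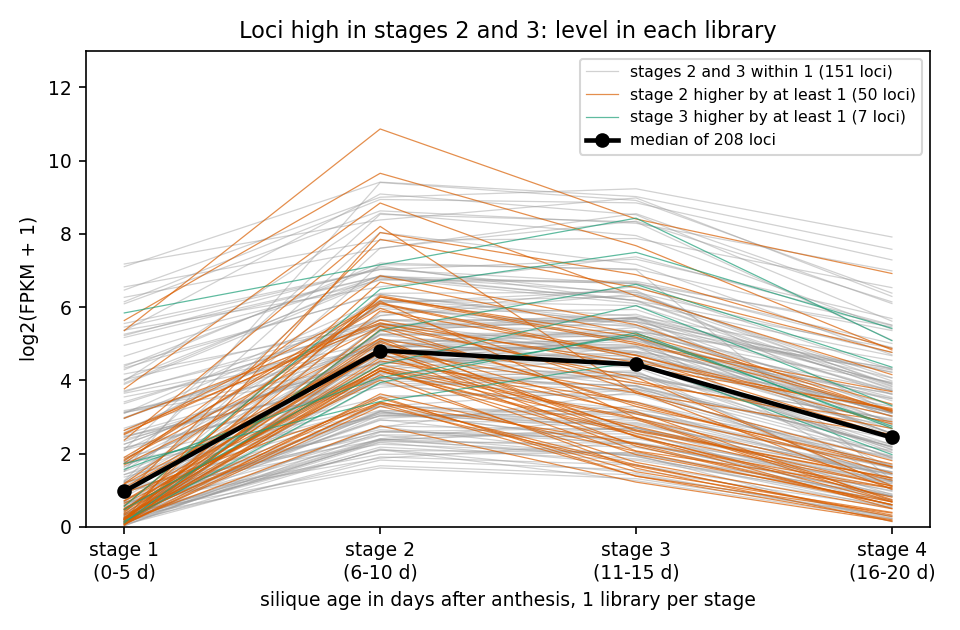
Lines join the log2(FPKM + 1) of each of the 208 members over the 4 libraries, coloured by whether stage 2 (50 loci, orange), stage 3 (7 loci, green) or neither (151 loci, grey) was higher by at least 1; black is the median. The median line is highest in stage 2 and its stage 4 point lies above its stage 1 point.

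The sharpest stage 2 peaks within the class were those of BG3 and HDG3. BG3, a callose-degrading glucanase (chr3:21181742-21183075), was listed at 4.16, 294, 11.5 and 4.76 FPKM in stages 1 to 4. HDG3, a homeodomain protein gene of the endosperm (chr2:13740878-13746286), was at 2.50, 70.7, 6.87 and 1.42. In both, stage 3 stayed above the outer stages but was far closer to them than to stage 2. Among those that followed, GGT2, a gamma-glutamyl transpeptidase, was at 1.24, 28.4, 3.61 and 0.519, and RL6, a small MYB-type protein, at 0.645, 25.8, 3.21 and 1.08. At the other end AT4G33600 was at 0.389, 20.5, 64.8 and 8.89, the dehydrin AT4G38410 at 0.112, 14.4, 38.3 and 5.48, and the membrane protein RCI2B at 56.3, 142, 344 and 32.9. These were highest in stage 3. ENODL3, AT5G63240 and AT1G04380 had the widest gap between the outer stages, with stage 4 above stage 1 by 4.86, 4.87 and 4.86 on the log2 scale.

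**Figure D3:**
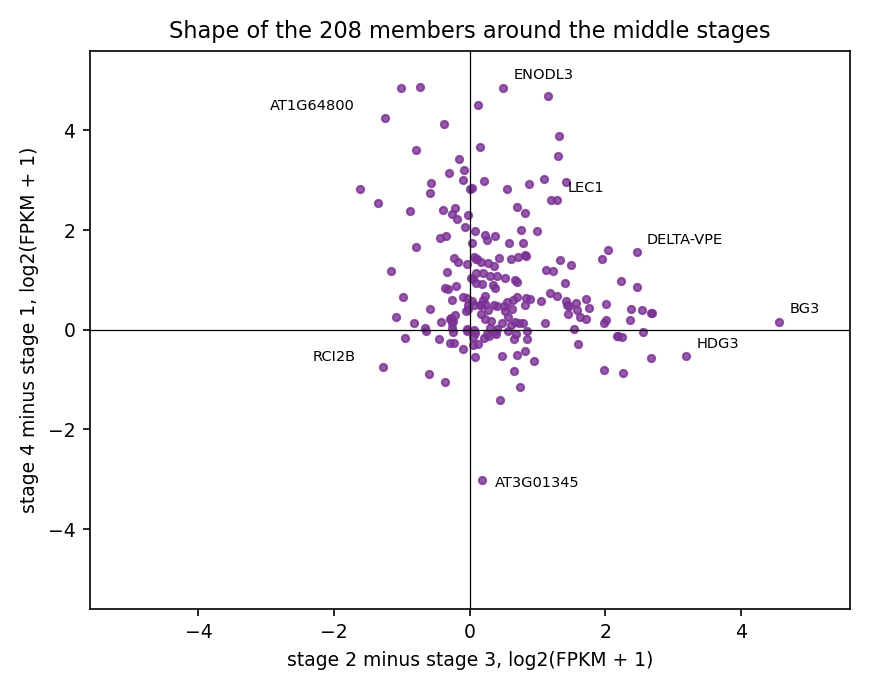
Each of the 208 members is placed by its stage 2 minus stage 3 difference (x axis) and its stage 4 minus stage 1 difference (y axis), both in log2(FPKM + 1). Points right of the vertical line (147) were higher in stage 2 and points above the horizontal line (165) were higher in stage 4 than in stage 1; BG3 is farthest right at 4.56 and AT3G01345 lowest at -3.02.

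In all, 4 members belonged to the list of seed maturation regulators, of 15 compared. LEC1 (chr1:7727577-7729617), which acts early in the embryo and suspensor and also in endosperm, was listed at 0.489, 78.6, 31.6 and 8.00 FPKM. LEC2 (chr1:9896860-9900212) was lower throughout, at 0.175, 9.07, 6.85 and 1.84. Both were highest in stage 2 and both kept a stage 4 value above that of stage 1. MYB118 (chr3:10288603-10291043), which acts in the endosperm and restrains storage programmes there, was at 0.115, 26.9, 28.9 and 7.90. Its close relative MYB115 was far lower, at 0.174, 3.30, 1.40 and 0.159, and its 2 outer libraries were nearly equal. The margins of these 4 were 1.86, 1.47, 1.65 and 1.03. With the libraries scaled to equal FPKM sums they were 1.11, 0.90, 0.74 and 0.97, so only LEC1 of the 4 kept its place. These sums hold very short loci with extreme FPKM. Of 39 named loci, 26 stayed with equal sums, 37 with sums over loci of at least 300 bases and 39 with median ratios.

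The other maturation regulators did not share this course. FUS3 was at 0.152, 22.1, 112 and 114, ABI3 at 0.0255, 7.82, 74.1 and 81.1, and EEL, a leucine zipper protein, at 1.17, 22.1, 260 and 331. All 3 were as high or higher in stage 4 than in stage 3, with margins of -2.31, -3.22 and -3.85. WRI1, the AP2-type activator of fatty acid synthesis, came nearest to the limit among non-members, at 3.61, 42.1, 38.8 and 33.8, where the stage 4 value left a margin of only 0.19. The median margin of the list was -1.43, below that of all loci. LEC1 and LEC2 thus stood apart from their partners FUS3 and ABI3 in their stage 4 level, where the first pair was below its stage 3 value and the second was not.

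Promoter windows are shown for LEC1, MYB118, RGE1 (an endosperm regulator described below) and AT3G50990 (a seed coat peroxidase described below). The rise they share in the middle libraries is fixed by the rule. Within it they differed, with stage 2 minus stage 3 at 1.29, -0.10, 0.23 and 1.30 on the log2 scale. Each window runs 5′ to 3′ on the gene's strand from 250 bases before to 50 after the RefSeq start, in build TAIR10.1. The regions are chr1:7729600-7729899 (minus strand) for LEC1, chr3:10290885-10291184 (minus) for MYB118, chr1:18424328-18424627 (plus) for RGE1 and chr3:18942885-18943184 (plus) for AT3G50990. Capitals mark matches on either strand to the RY core CATGCA, the G-box CACGTG, the AW-box, the CCAAT box, the MYB sites TAACTG and CAACTG, the W-box cores TTGACC and TTGACT and the prolamin box TGTAAAG.
LEC1: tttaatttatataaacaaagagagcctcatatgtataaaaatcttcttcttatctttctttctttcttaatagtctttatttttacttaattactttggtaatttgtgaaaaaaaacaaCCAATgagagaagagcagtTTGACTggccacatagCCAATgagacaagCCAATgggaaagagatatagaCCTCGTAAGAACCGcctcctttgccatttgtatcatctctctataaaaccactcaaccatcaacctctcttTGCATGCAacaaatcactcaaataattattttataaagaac
MYB118: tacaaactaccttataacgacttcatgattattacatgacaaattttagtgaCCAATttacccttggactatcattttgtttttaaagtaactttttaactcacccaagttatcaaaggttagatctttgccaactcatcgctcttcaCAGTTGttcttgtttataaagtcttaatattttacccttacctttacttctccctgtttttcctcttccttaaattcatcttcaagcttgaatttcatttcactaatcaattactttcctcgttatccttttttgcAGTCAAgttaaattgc
RGE1: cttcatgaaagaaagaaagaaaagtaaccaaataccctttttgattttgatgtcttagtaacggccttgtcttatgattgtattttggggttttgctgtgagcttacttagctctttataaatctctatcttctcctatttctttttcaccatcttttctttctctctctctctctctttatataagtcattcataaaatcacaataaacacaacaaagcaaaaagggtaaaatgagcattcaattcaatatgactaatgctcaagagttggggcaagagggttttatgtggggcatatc
AT3G50990: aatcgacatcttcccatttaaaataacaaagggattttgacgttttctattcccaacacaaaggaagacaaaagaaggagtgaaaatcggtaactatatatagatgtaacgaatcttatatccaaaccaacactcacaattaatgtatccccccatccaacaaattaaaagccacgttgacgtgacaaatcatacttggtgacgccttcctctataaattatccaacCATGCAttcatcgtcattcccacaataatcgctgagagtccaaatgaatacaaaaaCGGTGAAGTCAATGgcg
The LEC1 window held 3 CCAAT boxes, an AW-box, a TTGACT core and overlapping RY cores on both strands. The MYB118 window held 1 CCAAT box, a CAACTG site and a TTGACT core, both of the latter read on the opposite strand. The AT3G50990 window held an RY core and, past the start, an AW-box that overlaps a TTGACT core. The RGE1 window held none of the capitalised motifs, and this says only that these letters are not in it.

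Across the promoters of 196 members naming 1 protein-coding gene, the RY core was present in 13.8%, against 9.33% of all 18478 such promoters compared, but it was as frequent in the mirrored low class, at 15.8% of 95. CCAAT was present in 42.3% against 52.7% of all and 40% of the low class, the G-box in 4.08% against 8.62% and 9.47%, and the telo-box AAACCCTA in 1.02% against 5.57% and 3.16%. The next shares are again those of members against all promoters. The AW-box was present in 10.7% against 11.5%, the CAACTG site in 6.12% against 7.14%, TAACTG in 10.7% against 9.52%, TTGACC in 12.2% against 14.2% and TTGACT in 19.9% against 21.7%, with 29.5% in the low class. The prolamin box was in 5.1% against 5.36%. The DOF core TAAAG, which lies within the prolamin box, was in 68.9% against 65.9% and the AACA box AACAAA in 62.8% against 61.8%. The full RY repeat CATGCATG was in 2 member promoters, 1.02% against 0.85%. Member promoters were also slightly poorer in G and C, with a median of 29.3% against 31.7%. These shares are descriptions with no test, and no match is evidence of binding.

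The endosperm list gave 4 members of 16 compared. RGE1 (chr1:18424301-18426782), the basic helix-loop-helix protein also called ZHOUPI that is needed for endosperm breakdown and for the embryo cuticle, was at 0.158, 24.4, 20.7 and 3.31 FPKM. ALE1 (chr1:23051002-23055672), a subtilisin-type protease of the endosperm that acts in embryo cuticle formation, was at 0.102, 18.1, 17.6 and 2.705. The Stig1-type peptide gene AT1G50650 (chr1:18763773-18764297) was at 0.335, 56.6, 60.2 and 11.3. These 3 ran nearly flat from stage 2 to stage 3, with margins of 2.33, 2.33 and 2.23, and HDG3, described above, was the fourth. ICE1, the dimer partner of ZHOUPI, was at 33.4, 133, 139 and 68.4 and missed the limit with a margin of 0.95.

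Of the other endosperm genes, FWA, a homeodomain protein gene active in the endosperm, was at 1.75, 12.9, 0.730 and 0.280, and HDG8 at 1.23, 8.99, 0.181 and 0.0377. In both the stage 3 value was below that of stage 1, so neither could enter the class. TWS1 was highest in stage 1, at 113, 25.3, 46.9 and 32.6, with a margin of -2.12. PHE1 was at 8.04, 19.3, 0.736 and 17.7, with a margin of -3.43. YUC10 was highest in stage 3 but had stage 2 below stage 4, with a margin of -1.11. Apart from ICE1, every non-member compared on this list had a negative margin. The median margin of the endosperm list was -0.53, close to the -0.59 of all loci. WOX8, a homeobox gene of the basal embryo lineage and suspensor, was a member outside this list at 0.285, 7.90, 3.80 and 0.986. Its relative WOX9 was nearly level in all 4 libraries, between 8.52 and 11.1.

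The seed coat mucilage list gave 5 members of 29 compared. MUM4, the rhamnose synthase that supplies the pectin of mucilage, was at 35.0, 113, 98.4 and 31.2 FPKM. AT2G47670, the pectin methylesterase inhibitor PMEI6, was at 2.09, 36.6, 23.5 and 3.10. AT3G50990, peroxidase 36, which helps open the outer wall of mucilage cells, was at 0.154, 76.6, 30.5 and 11.9. Their margins were 1.46, 2.58 and 1.29, and the peroxidase had the lowest stage 1 value of the 3. BXL1, a xylosidase and arabinofuranosidase that trims arabinan in the mucilage, was among the most abundant members at 87.3, 511, 600 and 240. MYB61, a regulator of mucilage deposition, was at 4.87, 49.1, 19.6 and 8.40. A sixth locus, covering AT5G49180 of the pectin methylesterase inhibitor superfamily together with the sucrose synthase gene SUS2 and AT5G49200, was at 67.2, 395, 312 and 126, and its value cannot be assigned to any of the 3 genes. With equal FPKM sums AT2G47670 kept a margin of 1.93, while MUM4 was at 0.82, AT3G50990 at 0.51, MYB61 at 0.37 and BXL1 at 0.10, all below the limit. The weakness of this scaling is given above with the maturation regulators.

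Some other mucilage genes were high in the middle libraries but lower in stage 4 by less than the rule asks for. GL2 was at 5.72, 43.6, 26.1 and 15.9, MYB5 at 11.4, 45.9, 35.8 and 21.7, and KNAT7 at 9.15, 70.7, 79.9 and 46.1, with margins of 0.68, 0.70 and 0.61. All 3 encode transcription regulators of the seed coat and all 3 were highest in the middle libraries. The other regulators on the list were mixed. NARS1, NARS2 and MYB52 had margins of -1.45, -1.35 and -2.34, each with stage 2 below stage 4. EGL3 was highest in stage 1, with a margin of -1.76, and LUH was highest in stage 4. TTG1 was nearly level in stages 1, 2 and 4, and TTG2 was highest in stage 2, with a margin of 0.49. The median margin of the list was -0.28.

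**Figure D4:**
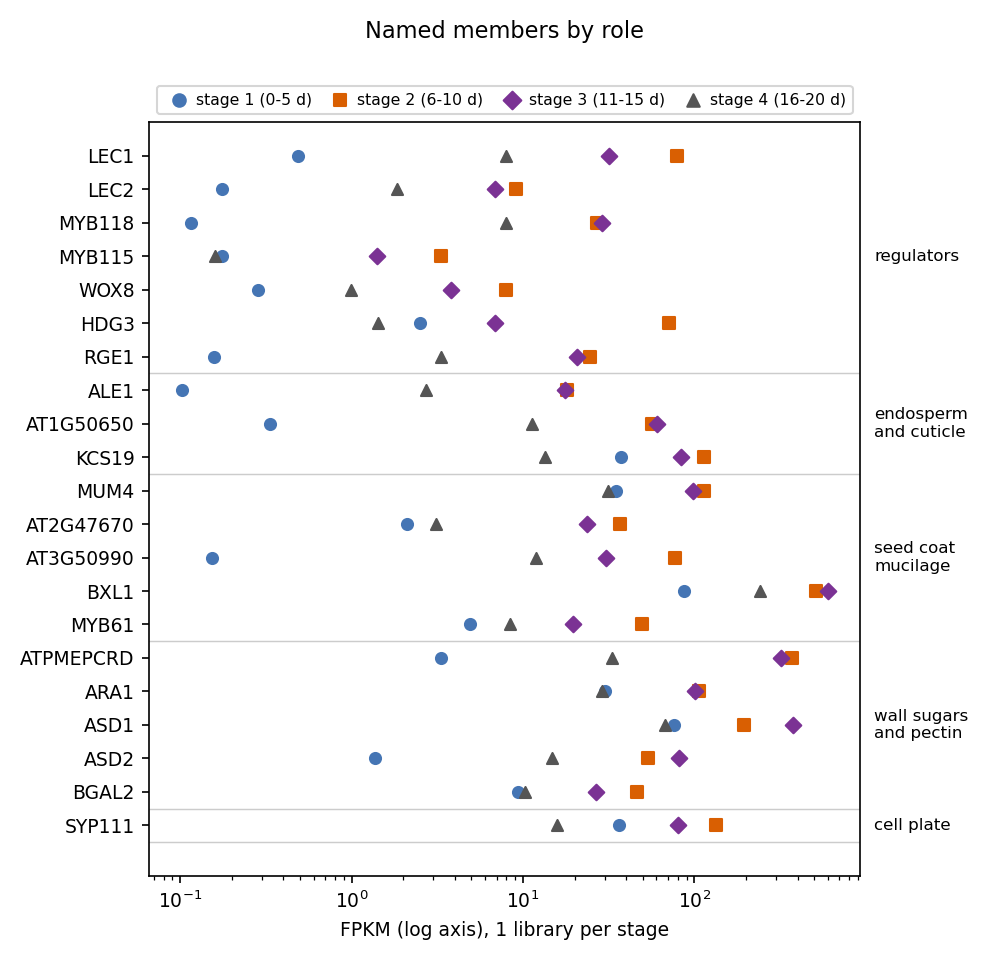
FPKM on a log axis is shown for 21 named members, with 1 symbol per library, grouped by role. In every line the square and diamond of stages 2 and 3 lie to the right of the circle and triangle of stages 1 and 4, which the rule fixes; the gap is narrow for members such as BXL1 and wide for ATPMEPCRD.

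Several members outside the mucilage list encode enzymes of the cell wall, chosen here after their values were seen. ATPMEPCRD, of the pectin methylesterase superfamily (chr2:17902484-17904443), had one of the largest margins, 3.23, and was at 3.34, 369, 320 and 33.2 FPKM. ARA1, arabinose kinase, was at 30.1, 106, 101 and 28.8. The arabinofuranosidases ASD1 and ASD2 were at 76.0, 193, 374 and 67.5 and at 1.37, 53.3, 80.8 and 14.8. Both were higher in stage 3 than in stage 2, whereas most of the class was not. GH9C1, an endoglucanase, was at 0.116, 45.4, 44.5 and 7.01, XTH11, a xyloglucan-modifying enzyme, at 13.8, 107, 103 and 40.1, and the beta-galactosidase BGAL2 at 9.31, 46.4, 26.5 and 10.3. GH9C1 overlaps a gene on the other strand, and the library kit does not mark strand, so reads of the pair cannot be told apart.

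Words in the RefSeq product names gave counts of protein families, with word lists chosen after the members were seen. Small cysteine-rich peptides (defensin-like, thionin and related) made up 13 of the 196 single-gene coding members, or 6.63%, against 0.319% of the 18478 loci compared. These were 13 of 59 such peptides compared. Early nodulin-like proteins, copper-protein relatives attached to the plasma membrane, gave 5 members (2.55% against 0.092%), and proteins with a carbohydrate-binding X8 domain gave 4 (2.04% against 0.0704%). That is 5 of the 17 early nodulin-like and 4 of the 13 X8 loci compared. Pectin methylesterases and their inhibitors gave 4 members (2.04% against 0.4%), lipid-transfer type proteins 4 (2.04% against 0.368%), sugar transferases 9 (4.59% against 1.36%) and transcription factor names 25 (12.8% against 5.25%). The mirrored low class of 95 such loci held 2 lipid-transfer type proteins, 2 sugar transferases, 5 transcription factor names and 1 small cysteine-rich peptide. It held no pectin methylesterase or inhibitor, early nodulin-like or X8 locus. The lipid-transfer share was thus much the same in both classes, at 4 of 196 and 2 of 95. These shares were not tested, since the words were picked from the members' own names.

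ENODL3 (chr4:14032845-14033840) was the third most abundant member in the middle libraries, at 1.88, 676, 481 and 82.4 FPKM. ENODL4 was at 14.8, 377, 247 and 41.2, and ENODL10 at 0.973, 142, 131 and 44.2. ENODL12 and ENODL16 were lower, at 0.438, 6.50, 6.05 and 1.74 and at 3.78, 26.1, 29.5 and 11.3. In all 5 the stage 4 value exceeded the stage 1 value, and stages 2 and 3 were within 1 of each other on the log2 scale.

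The small cysteine-rich peptides had a median FPKM of 0.383, 44.2, 23.3 and 4.58 over stages 1 to 4. The highest was the thionin-type AT1G53282, at 0.138, 261, 117 and 28.2. Its neighbour AT1G53285, 1218 bases away on the same strand, was at 0.262, 44.2, 24.8 and 5.37. The defensin-like AT1G13607 had the largest margin of these peptides, 2.76, at 0.754, 80.4, 47.0 and 6.08. AT3G16895 was at 2.32, 115, 44.9 and 7.80, and LCR49 at 1.05, 27.4, 20.6 and 3.34. Stage 2 was above stage 3 in 12 of the 13. Peptides of this kind are encoded by short transcripts, for which FPKM is less certain, and similar family members can share reads.

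Among regulators outside the lists, the ovate-type repressor AT3G52550 (chr3:19492106-19492935) was at 0.186, 33.6, 29.8 and 2.06, the second largest margin of the class at 3.33. The homeobox gene HB21 was at 5.48, 29.3, 28.4 and 4.87, and the AT-hook protein gene SOB3 at 0.158, 32.8, 22.2 and 7.21. MYB56, known as a regulator of seed size through the seed coat, was at 1.31, 32.6, 39.1 and 10.6, and MYB109 at 4.48, 15.5, 15.8 and 6.74. The zinc finger gene GATA29 was at 0.0268, 40.7, 9.19 and 2.12. The DOF zinc finger gene DOF4.3 was at 0.184, 18.1, 4.63 and 0.603, DOF4.5 at 0.153, 10.4, 1.84 and 0.315, and DOF4.7 at 0.391, 19.1, 36.3 and 6.21. The first pair peaked in stage 2 and DOF4.7 in stage 3, and DOF4.7 overlaps an opposite-strand gene. Other regulators at an FPKM of at least 10 in both middle libraries were ULT2 (6.93, 41.0, 25.8 and 5.93), which overlaps an opposite-strand gene, LBD42 (0.0614, 39.2, 51.5 and 17.6), BBX14 (45.9, 130, 98.6 and 43.1), RVE1 (4.59, 14.8, 13.5 and 3.61) and AT1G64800 (0.0761, 40.3, 97.4 and 19.5). RVE1 also overlaps an opposite-strand gene. LBD42 and BBX14 are neighbours on opposite strands whose RefSeq genes overlap, so part of either value may belong to the other.

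NAC012, also called SND1 and a master regulator of fibre secondary walls, was the 1 member of the 15 secondary wall loci compared, at 0.599, 5.07, 4.29 and 1.43. GA3OX3, an enzyme of the last step to active gibberellin, was the 1 member of the 18 hormone enzyme loci, at 0.214, 4.29, 2.62 and 0.783. SYP111 (chr1:2709632-2710912), the cytokinesis syntaxin also called KNOLLE, was the 1 member of 12 cell cycle loci, at 36.4, 134, 79.9 and 15.8. Its stage 1 value was over that of stage 4, as for all 12 cell cycle loci compared. The mitotic genes AUR1 (17.1, 13.2, 9.13 and 2.06) and CDKB2;1 (31.5, 21.7, 13.8 and 2.90) were highest in stage 1. Others on the list were highest in stage 2 but had stage 3 below stage 1. Among them were CDKB1;1 (21.8, 22.8, 7.73 and 1.97) and MCM5 (9.53, 14.3, 4.07 and 1.15). SYP111 overlaps an opposite-strand gene at its end.

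**Figure D5:**
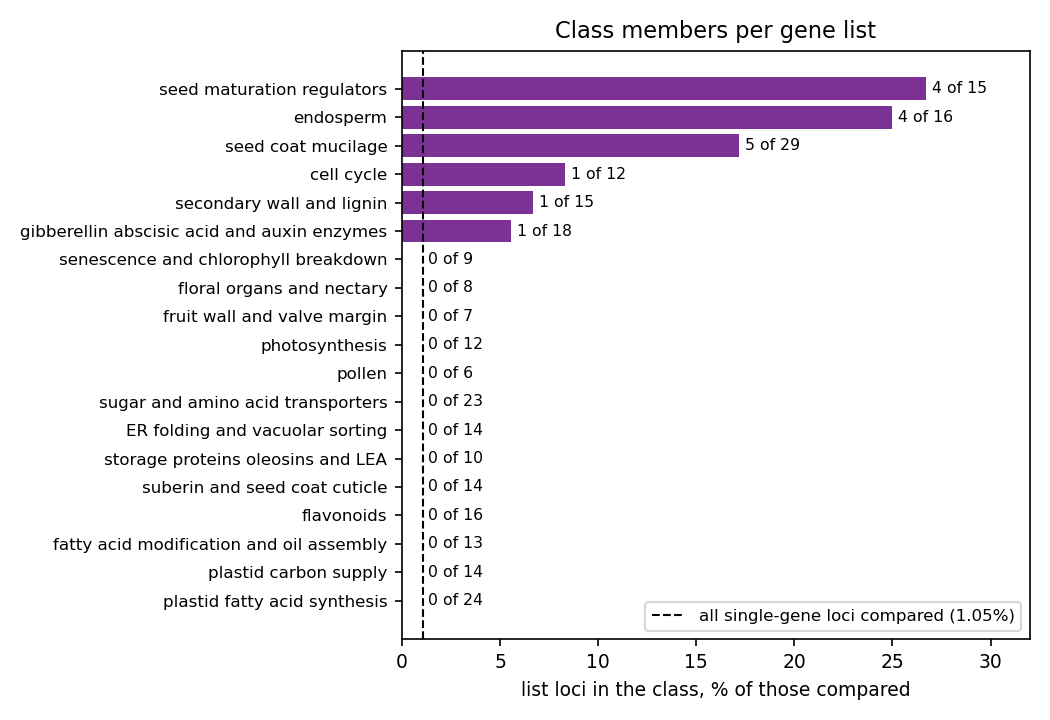
Bars give the percentage of each of 19 gene lists that fell in the class, among list loci that name 1 gene and were above 0 in all 4 libraries; the dashed line is the share of all such loci, 1.05%. Maturation regulators (4 of 15), endosperm (4 of 16) and seed coat mucilage (5 of 29) lead, and 13 lists have no member.

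Taking the 19 lists together, 16 of 275 loci compared were members (5.82%), against 200 of 19101 single-gene loci (1.05%). The lists were drawn up with earlier results of these data known, so these shares are no independent evidence. No member came from 24 loci of plastid fatty acid synthesis, 14 of plastid carbon supply, 13 of fatty acid modification and oil assembly, 16 of flavonoids, 14 of suberin and cuticle, 23 of sugar and amino acid transport or 14 of protein folding and vacuolar sorting. Loci shared by several genes are not in these counts. Those of SUS2, on the carbon supply list, and DELTA-VPE, on the sorting list, were in the class. LACS9, an acyl-CoA synthetase of the plastid envelope, missed the limit with a margin of 0.98 at 24.9, 50.03, 64.5 and 15.9, and KASI, a condensing enzyme, was at 175, 236, 216 and 109 with a margin of 0.30. Both were highest in the middle libraries, but by less than the limit. Storage proteins, oleosins and late embryogenesis proteins, 10 loci compared, had a median margin of -6.14: OLEO1, the main oil body protein, was at 3.63, 256, 11565 and 15738, still highest in stage 4. The flavonoid enzyme gene BAN was at 77.3, 360, 42.4 and 15.3, so that stage 3 was already below stage 1. Photosynthesis (12 loci), pollen (6), floral organs (8), fruit wall (7) and senescence (9) likewise gave no member.

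Of the remaining abundant members, the locus of DELTA-VPE (chr3:7052382-7055456) was the highest, at 40.1, 1863, 338 and 120. DELTA-VPE is a vacuolar protease of the inner seed coat, and the locus is shared with AT3G20220, so the value is joint. The water channel gene PIP1;5 was at 137, 681, 517 and 190, and the serine carboxypeptidase-like gene scpl20 at 48.7, 805, 204 and 27.5, the latter overlapping an opposite-strand gene. FSD1 (chr4:12884300-12887011), the iron superoxide dismutase of plastids, was at 39.9, 544, 367 and 48.0, with near-equal outer stages and a margin of 2.91. The calcium-binding protein gene AT1G12080 was at 69.8, 490, 459 and 155, and the extensin-like AT2G43150 at 144, 332, 504 and 77.4. The latter was already high in stage 1 and had a margin of 1.20.

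HEI10, a RING protein of meiotic crossovers (chr1:19963260-19966952), had the largest margin, 3.42, at 2.40, 37.1, 35.3 and 1.33. Its 3′ end overlaps that of MUM4 on the opposite strand by 9 bases, and MUM4 was the higher of the pair in all 4 libraries, so the values may share fragments. RefSeq also places AT1G53480, on the opposite strand, and AT1G07887 over the HEI10 gene, and their fragments could be counted there too. The glutathione transferase GSTF14 was at 0.0961, 15.6, 18.2 and 1.01, the peroxidase AT5G15180 at 1.36, 68.2, 87.0 and 7.75, and the thaumatin-type AT1G19320 at 0.141, 43.8, 15.9 and 1.18. These had margins of 3.04, 2.98 and 2.96. AT3G01345, an uncharacterised gene, had the largest excess of stage 1 over stage 4 among the 43 members with stage 1 higher, at 18.6, 146, 129 and 1.41. The other members with margins among the 20 largest at these levels were PGL4, a sugar phosphate lactonase (0.753, 24.2, 19.4 and 2.69), the X8 protein AT1G78520 (2.44, 262, 143 and 24.97) and the glycosyl hydrolase AT2G14690 (0.130, 22.7, 21.6 and 3.47). The last overlaps an opposite-strand gene. JMT, which methylates jasmonate, was at 1.88, 66.4, 33.0 and 10.4, and QQS, a gene linked to starch content, at 6.78, 61.5, 43.0 and 9.88.

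Members' genes were shorter and simpler than those of all loci compared. The median transcript was 1270 bases against 1696, the median coding sequence 918 against 1137, and the median number of exons 2 against 4. Genes of 1 exon made up 25% of members against 17.2%, and coding sequences under 300 bases 10.7% against 3.89%. The mirrored low class was similar, with a median transcript of 1360 bases, 29.5% of genes with 1 exon and 11.6% of coding sequences under 300 bases. The structure was thus shared with loci that moved the other way. Chromosome 1 held 59 of the 196 (30.1% against 26.4%), chromosome 2 held 25 (12.8% against 15.2%), chromosome 3 43 (21.9% against 20.1%), chromosome 4 34 (17.3% against 15.1%) and chromosome 5 35 (17.9% against 23.1%).

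Adjacent genes formed 11 pairs with both in the class, 22 members in all, and no run of 3 was found. Such pairs were not counted for other sets of loci, so the number cannot be called high or low. Pairs of 1 family on 1 strand were the thionins AT1G53282 and AT1G53285, the lipid-transfer type AT1G43666 and AT1G43667, the X8 proteins AT5G63240 and AT5G63250, and the loci of SK7 and SK9, related SKP1-type genes. AT5G63240 was at 1.42, 195, 325 and 69.7 and AT5G63250, 555 bases away, at 0.115, 76.4, 35.2 and 8.06, so the neighbours differed in which middle library was higher. In 3 pairs the loci overlap and reads may be shared: HEI10 with MUM4, AT3G51325 with AT3G51330 by 116 bases, and the joint locus of AT2G19796 with MIOX2 inside it by 2613 bases. The MIOX2 value, 15.2, 49.5, 47.9 and 12.04, is uncertain for that reason. In all, 20 of the 196 single-gene coding members overlap another RefSeq gene, and the share over all loci compared was not counted.

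Another 19 loci met the limit apart from a listed value of 0 in stage 1, stage 4 or both, and were left out because an exact 0 can be a failed estimate. The cysteine-rich LCR16 and LCR27, the S1-type AT1G26796 and the leucine zipper gene AT5G07160 were among them. CAB1, a light-harvesting protein, was listed at 0, 8249, 4352 and 2150 and SESA4, a seed storage albumin, at 1.17, 185, 10984 and 0. For these 2 abundant genes a true absence cannot be told from a failed estimate, so no course is read from them.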

How the data were processed

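Per the labels' protocols, silique RNA was made into unstranded TruSeq libraries and sequenced from both ends. The authors deposited FPKM, 1 value per locus and library. TAIR10, Cuffdiff, Cufflinks and TopHat appear in the submitters' processing notes, and no version is given in the sources used here. From the 30915 values per library, 1 was kept per locus, 1 was added and log2 taken, which understates the change of low genes. The class was formed as the report states, and no test was run with 1 library per stage. Members and gene lists were chosen with earlier results of these data known. The text names the 20 largest margins at FPKM of at least 10 in both middle libraries, the 10 most abundant members, list members, high list non-members, near-limit loci and named transcription factors, and other genes chosen after their values were seen. Of 322 list entries, 25 were not analysed here, 11 shared a locus and 11 were listed at 0. Names, gene structure and promoters came from RefSeq TAIR10.1, in which 28733 of 29153 single-gene loci were found by identifier, 28732 of them overlapping the gene of that name. Depth was estimated from the lowest values, of which 71.4% to 81.6% fell on whole fragments within 0.2 of 1 fragment; intervals are not given. The counting was tested on simulated data with loci raised by set folds and counting noise only. That simulation held no variation between plants, so it says nothing of replicate error. Alternatives were other pseudocounts, margins, FPKM minimums, scalings and left-out libraries. Python 3.11.15, numpy 2.4.6, pandas 2.3.3 and matplotlib 3.10.9 were used.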

Additional observations from a re-analysis of the deposited data

How the results depend on the processing

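No paired analysis was possible because each stage has 1 library. The class of 208 loci, the mirrored low class of 103 and the 16 list members moved as follows. With a pseudocount of 0.1 the classes held 362 and 214 loci, and with 5 they held 107 and 44 with 10 list members. A margin of 2 left 44, 14 and 4, and a margin of 0.5 gave 536, 374 and 26. Means of the 2 stages on each side gave 1118, 1107 and 67. Scaling to equal FPKM sums, which multiplied stage 1 by 0.428 and stage 4 by 2.02, gave 124 loci (92 of the 208) and 8 list members; the sums hold very short loci with extreme FPKM, and over loci of at least 300 bases 199 of the 208 were kept, with median ratios 206. Leaving out 1 library leaves fewer values in the rule: the high class, low class and list members came to 610, 651 and 34 without stage 1, 585, 300 and 32 without stage 2, 718, 472 and 37 without stage 3, and 1425, 2049 and 68 without stage 4. Of the 39 loci followed singly, which are not all those named in the text, 6 left the class with a pseudocount of 5 and 17 at a margin of 2. With equal FPKM sums 13 of them left, and the margin of BXL1 was 0.10, MYB61 0.37, MYB118 0.74, MUM4 0.82, LEC2 0.90 and LEC1 1.11. Members' stage 1 values rest on the fewest fragments, although the estimated depth was lowest in stage 4.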
